A study of Mus musculus with 68 samples.

Results

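The 5 genes described here encode glucose carriers, members of the lactate carrier family, or a protein that brings lactate carriers to the cell surface. They are Slc2a1 (the protein GLUT1), Slc2a3 (GLUT3), Slc16a1 (MCT1), Slc16a4 and Bsg (basigin). They were chosen by name, make up 5 of the 37991 genes in the expression table, and stood on 1 row each. Their transcript levels were read in all 68 mouse RNA-seq libraries, which fall into 25 groups, and every level is in CPM, reads of the gene per 1000000 reads of its library. The study set vascular cells of healthy tissues side by side and followed endothelial cells of the central nervous system through 4 injury or disease models.

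In the epilepsy model, in stroke by middle cerebral artery occlusion (MCAO) and in traumatic brain injury (TBI) the cells were brain endothelial, and in experimental autoimmune encephalomyelitis (EAE) they were endothelial cells of the spinal cord. Each model had acute, subacute and chronic groups (n = 3 each). Epilepsy, EAE and stroke had 1 control group apiece (n = 3), and TBI had a control group for every stage (n = 3 for acute, n = 2 for subacute and for chronic). Healthy groups were cells titled brain vascular, whose source is nevertheless given as brain endothelial cells, brain endothelial cells, and endothelial cells of heart, kidney, lung and liver (n = 2 each), with whole brain (n = 4). The brain endothelial libraries came from the forebrain of adult male mice carrying Rosa-tdTomato and VE-Cadherin-CreERT2, in which tamoxifen (100 ul at 20 mg/ml on 3 days, finished 10 days before the cells were enriched) turns on a red reporter in endothelial cells. The other 66 libraries share a short description of sorted endothelial cells taken into Trizol, and the labels give them no genotype, age, sex, agent or day after injury. Tissue and preparation therefore cannot be told apart where brain endothelial cells are set against other organs or whole brain. The labels do not say that replicates were separate animals, so p-values measure only the spread between these libraries.

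Depth was 18.8 to 38.8 M reads per library (median 27.3 M), and mitochondrial ribosomal RNA took 12.2 to 51.8% of them. All 16 genes of an endothelial marker list were above 0 in every group, and their summed level was 9255 to 20788 CPM in sorted libraries, against 198 to 284 CPM in whole brain. Replicate 3 of the epilepsy controls stood apart from the other two for several of the carriers, and values without it are given where it moves them.

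Glucose enters the brain mainly through GLUT1, a facilitative carrier held in the membranes of barrier endothelial cells, while GLUT3 is the high-affinity glucose carrier of neurons. MCT1 carries lactate, pyruvate and ketone bodies together with a proton, in the direction set by their gradients. Basigin is an immunoglobulin-family membrane protein that escorts MCT1 and its relative MCT4 to the plasma membrane. Slc16a4 belongs to the same monocarboxylate carrier family as Slc16a1, and its substrates are less well defined.

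The promoters of the carriers that moved in opposite directions in acute epilepsy are shown here. Hypoxia-inducible factor and E-box proteins, both known to act on glucose and lactate carrier genes, bind sequences spelled ACGTG and CACGTG. Each line gives the 250 bases before the gene's start (RefSeq, GRCm38.p6, + strand), and capitals mark ACGTG with the C before it where that makes CACGTG. Slc16a1 lies at chr3:104638414-104638663, Slc16a4 at chr3:107290980-107291229 and Slc2a1 at chr4:119108495-119108744.
Slc2a1: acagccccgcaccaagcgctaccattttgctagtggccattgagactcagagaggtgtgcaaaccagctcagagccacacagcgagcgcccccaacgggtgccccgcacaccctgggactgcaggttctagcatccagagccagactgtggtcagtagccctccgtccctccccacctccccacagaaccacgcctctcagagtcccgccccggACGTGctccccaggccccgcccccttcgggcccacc
Slc16a1: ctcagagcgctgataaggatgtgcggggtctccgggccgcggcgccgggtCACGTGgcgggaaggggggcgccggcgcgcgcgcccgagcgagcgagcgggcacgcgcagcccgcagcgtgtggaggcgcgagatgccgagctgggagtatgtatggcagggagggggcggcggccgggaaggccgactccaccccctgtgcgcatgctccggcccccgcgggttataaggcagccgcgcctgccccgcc
Slc16a4: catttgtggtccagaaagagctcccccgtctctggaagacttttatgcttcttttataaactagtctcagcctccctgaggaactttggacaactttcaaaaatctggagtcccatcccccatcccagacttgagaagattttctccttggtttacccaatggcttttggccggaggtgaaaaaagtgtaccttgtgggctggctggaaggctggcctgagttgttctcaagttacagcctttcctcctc
Both strands were searched. For hypoxia-inducible factor and E-box proteins only ACGTG and CACGTG were looked for, and other spellings they may bind were not counted. The Slc2a1 window held ACGTG once, the Slc16a1 window held 1 CACGTG, which reads the same on both strands and so gives 2 overlapping matches of ACGTG, and the Slc16a4 window held neither. The CTTTGNT sequence bound by the nuclear partners of beta-catenin was found in 0 of the 3 windows. Of 32851 mouse promoters of the same length, 16.6% held ACGTG, 6.0% held CACGTG and 16.0% held CTTTGNT. G and C made up 66.4% of the Slc2a1 window, 76.4% of that of Slc16a1 and 48.0% of that of Slc16a4. A match is a description of the letters and was not tested as a binding site. Slc2a3 on chromosome 6 and Bsg on chromosome 10 are named only.

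Healthy brain endothelial cells carried far more Slc2a1, Slc16a1, Slc16a4 and Bsg than endothelial cells of heart, kidney, lung and liver, and less Slc2a3. All 5 genes passed the test against the mean of the 4 organs (limma on log2(CPM + 1), adjusted p under 0.05), where 31.6% of all 18141 tested genes passed. The median change over all genes was -0.14 on the log2 scale with 2003 genes called higher and 3734 lower, and 0.04 after quantile normalization with 3188 higher and 3072 lower; all 5 genes kept their call and direction there, at log2 6.22 for Slc2a1, 4.71 for Slc16a1, 5.59 for Slc16a4, 3.91 for Bsg and -1.53 for Slc2a3. In bulk RNA, fewer cells of a type and less RNA per cell cannot be told apart. Among the healthy groups, the share of all genes without overlap was read between the brain sorts alone. It was not read against the organs or whole brain.

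Slc2a1, the barrier's glucose carrier, stood at 3561 and 6088 CPM in brain endothelial cells. It stood at 106 and 65.6 CPM in heart, 75.6 and 84.8 in kidney, 34.6 and 54.1 in lung and 7.5 and 8.31 in liver. Every brain endothelial library lay above every organ library, and liver lay below the other 3 organs without overlap. Taken over the 4 organs the level was 115-fold higher (limma adjusted p = 5.78e-10), from 55.2-fold against heart to 524-fold against liver. Heart (85.8 ± 28.5 CPM, SD, n = 2) and kidney (80.2 ± 6.48) overlapped. An antisense transcript, Gm12868, shares 105 exon bases with Slc2a1, and it reached at most 51.7 CPM in any library; whether reads were counted by strand is not given in the sources used here.

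Slc2a3, the neuronal glucose carrier, ran the other way. Brain endothelial cells had 0.586 and 0.374 CPM, from 11 and 8 reads (exact Poisson 95% intervals 0.292 to 1.05 and 0.161 to 0.737 CPM, which cover counting error only). Kidney had 15.8 and 25.7 CPM, heart 6.21 and 4.44, liver 5.94 and 1.95 and lung 0.905 and 2.43. All 8 organ libraries were above both brain endothelial libraries, and kidney was above the other organs. Slc2a3 was 4.24-fold lower in brain endothelial cells than in the mean of the organs (log2 -2.08 ± 0.42, SE, limma adjusted p = 0.00194), and 14.3-fold lower than in kidney (adjusted p = 0.000128, where 14.8% of all genes were lower). It did not pass against lung (log2 -0.79 ± 0.54, limma adjusted p = 0.325, where 17.5% of all genes were lower). The call against heart (13.4% of all genes were lower) was lost without heart replicate 1 (limma adjusted p = 0.0887), and that against liver (log2 -1.62 ± 0.54, limma adjusted p = 0.0335, where 16.7% of all genes were lower) was lost with no filter on low genes (adjusted p = 0.0635), with the compared groups alone (0.0755) and in 3 of the 4 fits that left out a library of these groups (0.0779 to 0.294).

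Slc16a1, the lactate carrier, had 423 and 498 CPM in brain endothelial cells. In the organs it had 35.1 and 18.9 CPM in heart, 22 and 25.3 in liver, 12 and 11.5 in kidney and 2.89 and 12.6 in lung. The brain endothelial libraries lay above all organ libraries, while lung overlapped kidney and heart overlapped liver. Slc16a1 was 29.3-fold higher than the mean of the organs (log2 4.87 ± 0.38, SE, limma adjusted p = 3.54e-07). Its relative Slc16a4 had 239 and 283 CPM in brain endothelial cells, against 9.93 and 8.43 CPM in kidney, 4.29 and 4.73 in heart, 4.87 and 3.82 in lung and 0.606 and 0.377 in liver. That is a separation without overlap, with liver lowest, and a 57-fold difference from the organ mean (log2 5.83 ± 0.2, limma adjusted p = 1.4e-10).

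Bsg, the escort of the lactate carriers, had 3598 and 4780 CPM in brain endothelial cells. It had 268 and 167 CPM in lung, 173 and 203 in heart, 205 and 171 in liver and 111 and 152 in kidney. Unlike the carriers, Bsg differed little between the organs: the highest organ mean was 1.66 times the lowest, against 10.9 times for Slc2a1, 12.4 for Slc2a3, 3.48 for Slc16a1 and 18.7 for Slc16a4. Bsg was 23.4-fold higher in brain endothelial cells than in the organ mean (log2 4.55 ± 0.21, SE, limma adjusted p = 2.29e-09). The authors' deposited table marks Slc2a1, Slc16a4 and Bsg as BBB-Enriched, a mark given to 518 genes, and gives Slc16a1 and Slc2a3 no class.

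**Figure D1:**
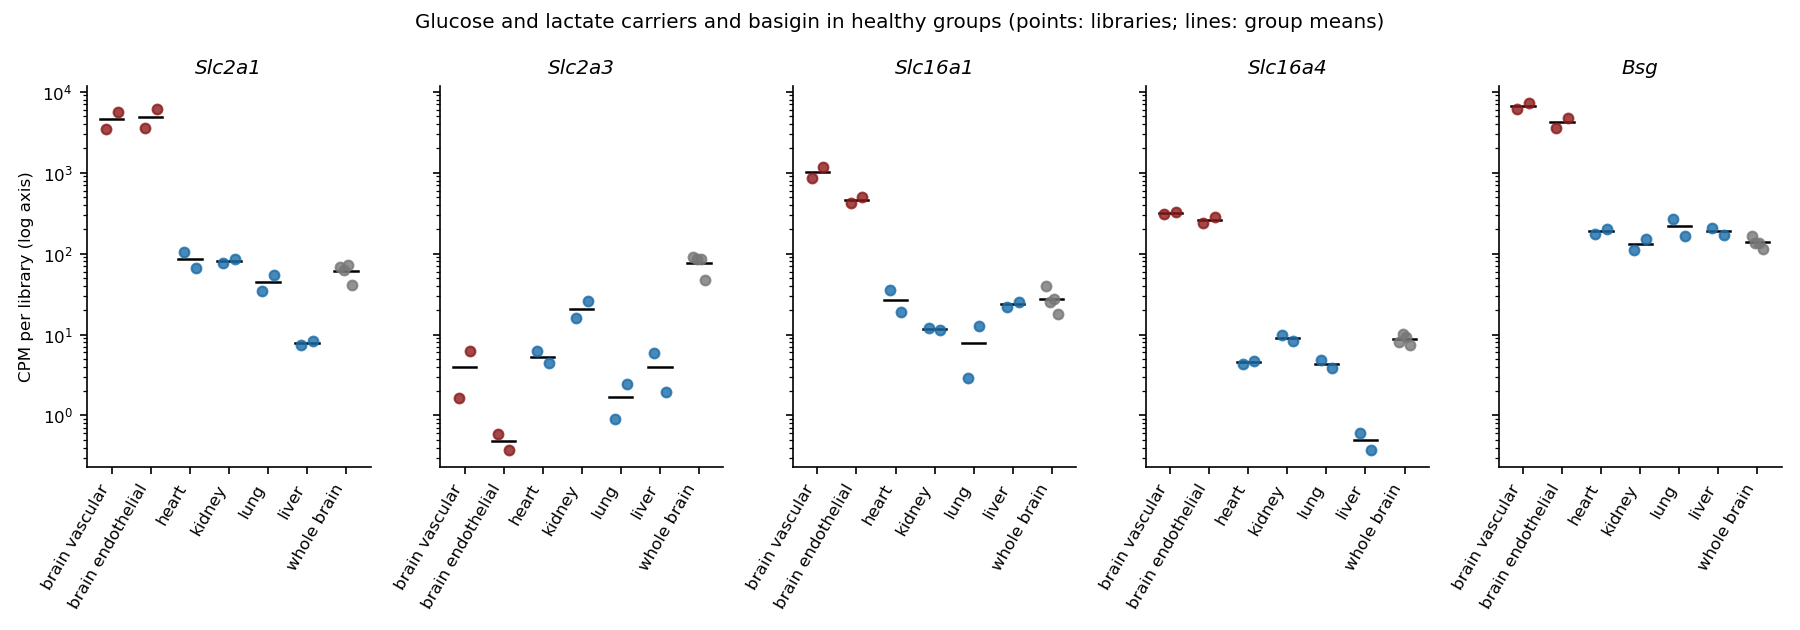
Level of each gene (CPM, log axis) in each library of the 7 healthy groups, with a line at the group mean. Slc2a1, Slc16a1, Slc16a4 and Bsg are highest in the 2 brain groups (brain endothelial 3561 and 6088 CPM for Slc2a1), whereas Slc2a3 is highest in whole brain (46.7 to 90.5 CPM).

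Brain vascular cells, which share the short preparation description with the organ libraries, were also set against the organs. Of the 5 genes, 4 were higher and 0 lower, where 22.2% of all genes passed and 6.75% were higher. Slc2a1 was 110-fold higher (limma adjusted p = 9.99e-10), Slc16a1 64.1-fold (5.04e-08), Slc16a4 69.8-fold (9.8e-11) and Bsg 37.4-fold (9.46e-10). Slc2a3, at 1.64 and 6.3 CPM in brain vascular cells, overlapped heart, lung and liver (log2 -0.51, limma adjusted p = 0.469). The brain vascular libraries carried 4257 to 5337 CPM over 16 mural markers, against 675 to 760 CPM in brain endothelial cells.

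Between the brain sorts, brain vascular cells had 863 and 1176 CPM of Slc16a1, against 423 and 498 CPM in brain endothelial cells. Slc16a4 had 308 and 330 CPM in brain vascular cells and 239 and 283 in brain endothelial cells. Bsg had 6115 and 7193 CPM in brain vascular cells and 3598 and 4780 in brain endothelial cells. These 3 genes, and Slc2a3, were higher in brain vascular cells without overlap, as were 21.4% of all genes. None of the 5 passed limma (7.77% of all genes did), with adjusted p of 0.168 for Slc16a1, 0.562 for Slc16a4, 0.142 for Bsg and 0.0893 for Slc2a3. Slc2a1, at 3508 and 5646 CPM in brain vascular cells, overlapped brain endothelial cells.

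Against whole brain, brain endothelial cells were higher for the same 4 genes and lower for Slc2a3, where 57.7% of all genes passed in either direction. Whole brain held 67.5, 63, 72.6 and 41 CPM of Slc2a1, which was 76.8-fold higher in brain endothelial cells (limma adjusted p = 3.76e-10). Whole brain held 90.5, 84.8, 86.1 and 46.7 CPM of Slc2a3, which was 51.2-fold lower in brain endothelial cells (log2 -5.68 ± 0.47, SE, limma adjusted p = 8.17e-08). Neither gene's libraries overlapped between the groups. Neuronal markers (12 genes) summed to 12.5 to 25.5 CPM in brain endothelial cells, against 4660 to 5707 CPM in whole brain. Bsg was 30.2-fold, Slc16a4 26.9-fold and Slc16a1 16.7-fold higher in brain endothelial cells than in whole brain.

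Levels of different genes can be set side by side only per length of transcript. In brain endothelial cells Bsg stood at 2309 CPM per kilobase of exon, Slc2a1 at 1376, Slc16a1 at 104, Slc16a4 at 67.3 and Slc2a3 at 0.0662. In the injury series the order of Bsg and Slc2a1 changed with the group. Bsg was the higher per kilobase in the acute TBI controls (3544 for Bsg and 1247 for Slc2a1) and in the epilepsy controls (2787 for Bsg and 1782 for Slc2a1). Slc2a1 was the higher in the EAE controls (1773 for Slc2a1 and 1464 for Bsg), and in acute epilepsy it stood at 3729 CPM per kilobase, against 1075 for Bsg.

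The uninjured controls of the 4 models already differed, most of all for the lactate carrier. Over the 6 control groups the mean of Slc16a1 ran from 276 ± 17.4 CPM (SD, n = 3) in spinal cord controls of EAE to 1422 ± 165 CPM in acute TBI controls, a 5.15-fold range. Within TBI alone the acute controls had 1509, 1525 and 1232 CPM, the subacute controls 1124 and 937 and the chronic controls 797 and 716, with no overlap between the 3 groups. Mitochondrial ribosomal RNA took 29.1 to 34.8% of reads in acute, 41.7 and 38.4% in subacute and 31.4 and 40.9% in chronic controls. Per read outside that RNA the acute and subacute controls overlapped, and the chronic controls stayed below both. The share of all genes that separate in this way was not read. The range of control means was 2.95-fold for Bsg, 2.41-fold for Slc16a4, 2.27-fold for Slc2a1 and 1.66-fold for Slc2a3. Each injured group is therefore compared only with its own control.

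Spinal cord endothelial cells (the EAE controls) carried less Slc16a1, Slc16a4 and Bsg than brain endothelial cells (the mean of the 5 brain control groups). Of the 5 genes, 3 were lower and 0 higher, where 48.3% of all genes passed and 19.6% were lower. Slc16a1 was at 268, 264 and 296 CPM in the spinal cord controls, against 424 to 1525 CPM in the 13 brain control libraries, and was 2.93-fold lower (log2 -1.55 ± 0.18, SE, limma adjusted p = 1.58e-08). Slc16a4, at 161, 170 and 160 CPM, was below every brain control library (168 to 488 CPM) but for an overlap at the edge, and was 1.73-fold lower (limma adjusted p = 3.41e-05). Bsg, at 2720, 2556 and 2693 CPM in spinal cord controls and 3443 to 8168 CPM in brain controls, was 1.99-fold lower without overlap (limma adjusted p = 9.29e-06). The share of all genes without overlap in this comparison was not read. Slc2a1 (6280, 6391 and 5972 CPM) and Slc2a3 (7.1, 4.63 and 6.04 CPM) lay inside the brain range, with limma adjusted p of 0.105 and 0.346; without epilepsy control replicate 3 Slc2a1 passed as higher (log2 0.42, limma adjusted p = 0.0451). Region and model cannot be told apart in this comparison, and 10 of 11 fibroblast markers were higher and 7 of 8 red blood cell markers lower in the spinal cord controls.

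In acute epilepsy the glucose carrier Slc2a1 moved one way and the monocarboxylate carriers with Bsg the other. Slc2a1 was higher and Slc16a1, Slc16a4 and Bsg were lower than in epilepsy controls, so that 4 of 5 genes passed where 42.5% of all genes did, 11.6% higher and 30.9% lower. The median change over all genes was -0.22 on the log2 scale, and -0.01 after quantile normalization, which also moved the split of called genes to 2471 higher and 2775 lower, against 1587 higher and 4247 lower as reported.

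Slc2a1 reached 12944, 12072 and 14206 CPM in acute epilepsy libraries, against 4924, 4986 and 8835 CPM in controls. All acute libraries were above all controls, as for 14.1% of all genes, and of the controls replicate 3 stood well above the other two. The 2.17-fold rise (log2 1.12 ± 0.23, SE, limma adjusted p = 0.00128) was not kept under quantile normalization (log2 0.40, limma adjusted p = 0.133). Without control replicate 3 the rise was larger, at log2 1.40. The sum of 16 endothelial markers was 15517 to 16422 CPM in acute libraries and 13051 to 14168 CPM in controls, with 5 of the 16 higher and 5 lower; its part in the result was not tested.

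Slc16a4 showed the deepest fall, with 54.9, 57.1 and 58.7 CPM in acute epilepsy, against 336, 263 and 168 CPM in controls. The acute libraries lay close together and far below the controls, and the change was 4.26-fold (log2 -2.09 ± 0.18, SE, limma adjusted p = 8.34e-07). Slc16a1 had 205, 228 and 250 CPM in acute epilepsy, against 947, 657 and 424 CPM in controls. It was 2.82-fold lower without overlap (log2 -1.49 ± 0.24, SE, limma adjusted p = 0.000146), although the controls themselves spread more than 2-fold. Bsg had 1645, 1900 and 2302 CPM in acute epilepsy, against 4979, 4835 and 5353 CPM in controls. It was 2.62-fold lower without overlap (log2 -1.39 ± 0.19, SE, limma adjusted p = 3.14e-05). Of all genes, 34.1% lay below all controls in the same way as these 3.

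The 3 falls also passed after quantile normalization, at log2 -2.06 for Slc16a4, -1.71 for Slc16a1 and -1.73 for Bsg (limma adjusted p of 4.53e-06, 7.96e-05 and 3.84e-06), and with each library left out in turn. Without control replicate 3 they stood at log2 -2.36 for Slc16a4, -1.79 for Slc16a1 and -1.35 for Bsg (limma adjusted p of 2.24e-08, 9.81e-06 and 5.46e-05). Mitochondrial ribosomal RNA took 22.3 to 24.2% of reads in acute epilepsy and 27.2 to 31.2% in controls, and with it left out the changes were log2 1.02 for Slc2a1, -2.20 for Slc16a4, -1.60 for Slc16a1 and -1.49 for Bsg, each still called. Slc2a3 had 8.14, 8.09 and 6.44 CPM in acute epilepsy and 4.82, 7.25 and 5.06 in controls, which overlap. It did not pass (log2 0.36 ± 0.23, limma adjusted p = 0.215), but passed after quantile normalization (0.82, adjusted p = 0.00679). Neutrophil markers summed to 12.3 to 62.2 CPM in acute epilepsy, against 1.13 to 9.27 CPM in controls, with 3 of the 4 tested higher, and mural markers to 3315 to 6562 CPM in acute epilepsy, against 3861 to 5864 CPM in controls. Their part in these results was not tested.

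**Figure D2:**
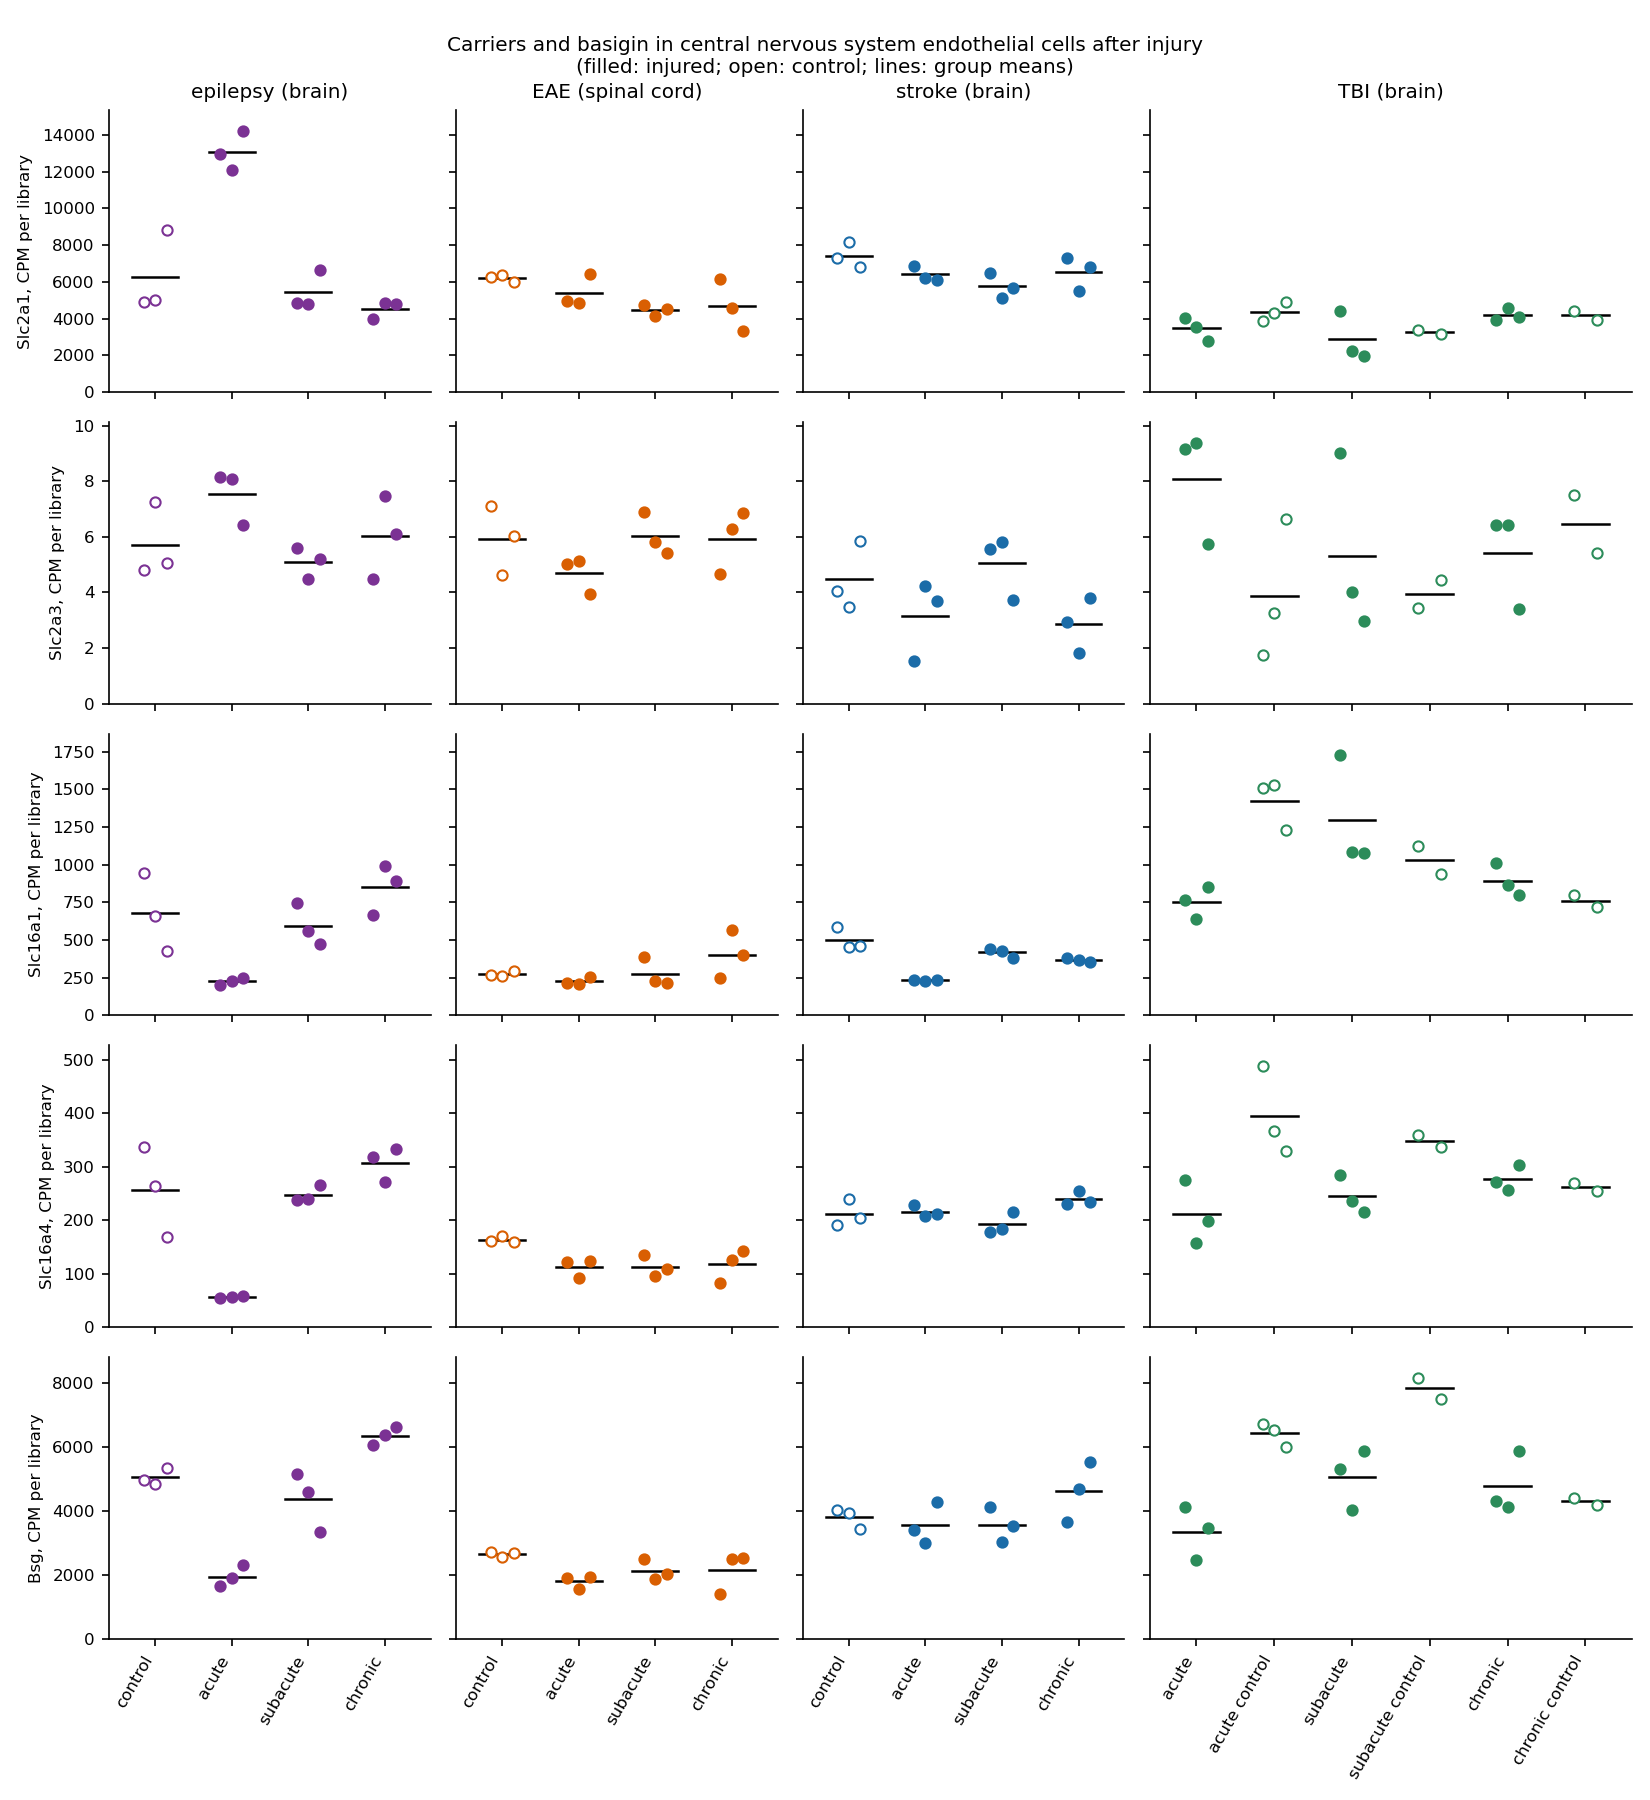
CPM of each gene (rows) in each library of the 4 models (columns), filled for injured groups and open for controls, with a line at the group mean. In acute epilepsy Slc2a1 is at 12072 to 14206 CPM, above its controls, while Slc16a4 is at 54.9 to 58.7 CPM, below them, and both are near control at the subacute stage.

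By the subacute stage of epilepsy none of the 5 genes passed against control, where 15.6% of all genes did. Set directly against the acute stage, 4 of 5 passed, where 49.7% of all genes did. Slc16a4, at 238, 240 and 265 CPM in subacute libraries, was 4.3-fold above the acute level (log2 2.1 ± 0.18, SE, limma adjusted p = 5.69e-07). Slc16a1 (746, 557 and 473 CPM) was 2.55-fold and Bsg (5164, 4589 and 3352 CPM) 2.23-fold above it, with limma adjusted p of 0.000248 and 0.000111. Slc2a1, at 4872, 4810 and 6628 CPM, was 2.43-fold below the acute level (log2 -1.28 ± 0.23, SE, limma adjusted p = 0.000339). In each of these genes no subacute library overlapped an acute one, and 48.0% of all genes were higher and 17.7% lower in that way. Slc2a3 was not called between these stages (log2 -0.49, limma adjusted p = 0.084), but was lower in the subacute stage after quantile normalization (-1.07, adjusted p = 0.000875). At the chronic stage 0 of 5 genes and 0.0655% of all genes passed against control; Bsg, at 6060, 6383 and 6640 CPM, lay above all controls (10.8% of all genes did) and Slc2a1, at 3963, 4853 and 4779 CPM, below them (3.45% did), with limma adjusted p of 0.46 and 0.464. Without control replicate 3 the chronic change of Slc2a1 was log2 -0.13 in place of -0.41, and that of Bsg 0.37 in place of 0.33, and 0 of 5 passed at either later stage.

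In acute stroke the lactate carrier fell, and it was the one gene of the 5 that passed. Slc16a1 had 234, 226 and 238 CPM in acute stroke, against 586, 454 and 461 CPM in controls. The acute libraries were nearly equal and all below the controls, and the fall was 2.13-fold (log2 -1.09 ± 0.12, SE, limma adjusted p = 0.000499). It was 1 of 5 genes called, where 1.42% of all genes were called and 0.995% were lower. All acute libraries lying below all controls was seen for 19.7% of all genes. Mitochondrial ribosomal RNA took 35.8 to 38.1% of reads in acute stroke and 23.6 to 31.0% in controls, and with it left out the fall was log2 -0.87 (limma adjusted p = 0.00123). It passed under every alternative tried, with log2 values from -1.16 to -0.85.

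The other genes were not called, and Slc2a1, Slc16a4 and Bsg overlapped between acute stroke and control. Bsg had 3401, 2986 and 4270 CPM in acute stroke and 4035, 3934 and 3443 in controls (limma adjusted p = 0.788). Slc16a4 had 228, 208 and 212 CPM in acute stroke and 191, 240 and 204 in controls (0.9), and Slc2a1 had 6883, 6227 and 6108 CPM in acute stroke and 7284, 8164 and 6783 in controls (0.533). The endothelial markers summed to 10686 to 11874 CPM in acute stroke and 13289 to 15192 CPM in controls, with none of 16 called; their part in the result was not tested. Slc16a1 was back at 442, 430 and 384 CPM in subacute stroke, 1.79-fold above the acute level (log2 0.84 ± 0.12, SE, limma adjusted p = 0.000917), the only one of 5 genes to pass between these stages, where 4.22% of all genes did. It remained below every control at the subacute stage (26.4% of all genes did) and at the chronic stage (382, 370 and 355 CPM, 14.1% of all genes), but 0 of 5 genes passed against control at either (7.85% and 0% of all genes passed). Slc2a1, at 6503, 5126 and 5655 CPM in subacute stroke, also lay below every control (limma adjusted p = 0.198). Mitochondrial ribosomal RNA took 33.4 to 39.4% of reads in subacute stroke, against 23.6 to 31.0% in controls. In chronic stroke it took up to 40.4%, and replicate 1 lay within the control range. Lying below every control at these later stages held only with that RNA counted in. Per read outside it, Slc16a1 in subacute and chronic stroke and Slc2a1 in subacute stroke overlapped their controls.

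In acute TBI both monocarboxylate carriers and Bsg fell. Slc16a1, Slc16a4 and Bsg were lower than in acute TBI controls, 3 of 5 genes, where 5.44% of all genes passed and 1.95% were lower. Slc16a1 had 768, 642 and 851 CPM in acute TBI, against 1509, 1525 and 1232 CPM in controls. Slc16a4 had 276, 158 and 199 CPM in acute TBI, against 488, 367 and 329 CPM in controls. Bsg had 4116, 2477 and 3467 CPM in acute TBI, against 6728, 6540 and 6016 CPM in controls. None of the 3 overlapped its controls, 11.4% of all genes being below theirs in the same way, and in Slc16a4 and Bsg replicate 2 was the lowest of the injured.

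The falls were 1.89-fold for Slc16a1 (log2 -0.92 ± 0.2, SE, limma adjusted p = 0.0131), 1.89-fold for Slc16a4 (-0.92 ± 0.19, 0.011) and 1.96-fold for Bsg (-0.97 ± 0.24, 0.03). These calls were fragile: no gene passed without acute control replicate 1 or without acute replicate 2, and 1 passed without acute control replicate 2. Bsg was called in 1 of the 6 fits that left out a library. With the 3 TBI control groups pooled, Slc16a1 no longer passed (log2 -0.53, limma adjusted p = 0.182). Red blood cell markers summed to 2958 to 4001 CPM in acute TBI and 4709 to 4855 CPM in its controls, and fibroblast markers to 140 to 374 CPM in acute TBI, against 64 to 106 CPM in its controls, with 4 of 11 higher; their part in these results was not tested.

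Slc2a1 in acute TBI, at 4019, 3569 and 2806 CPM, overlapped its controls at 3866, 4327 and 4921 CPM (limma adjusted p = 0.537). Slc2a3 had 9.15, 9.38 and 5.75 CPM in acute TBI and 1.75, 3.27 and 6.65 CPM in controls, with an overlap between the lowest injured and the highest control library (log2 0.99 ± 0.36, limma adjusted p = 0.135). At the subacute stage 0 of 5 genes passed, where 1.36% of all genes did. Bsg (5303, 4047 and 5868 CPM, against 8168 and 7506 in its controls) and Slc16a4 (285, 235 and 215 CPM, against 359 and 337) lay below their controls without overlap, as did 11.4% of all genes. Slc16a1, at 1730, 1085 and 1076 CPM, overlapped its subacute controls at 1124 and 937 CPM. At the chronic stage 0 of 5 genes and 0% of all genes passed.

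In acute EAE none of the 5 genes passed, where 1.25% of all genes did, yet 3 lay below all of their controls, as did 6.82% of all genes. Slc16a4 had 121, 92.4 and 123 CPM in acute EAE, against 161, 170 and 160 CPM in controls (log2 -0.55 ± 0.21, SE, limma adjusted p = 0.215). Bsg had 1916, 1561 and 1921 CPM in acute EAE, against 2720, 2556 and 2693 CPM in controls (-0.57 ± 0.24, 0.277). Slc16a1 had 214, 211 and 256 CPM in acute EAE, against 268, 264 and 296 CPM in controls (-0.28 ± 0.28, 0.688). Before adjustment over all genes the limma p was 0.0213 for Slc16a4, 0.0372 for Bsg and 0.331 for Slc16a1. Slc16a4 and Bsg stayed below every control in subacute and chronic EAE (0 of 5 called at either stage, where 11.6% and 2.46% of all genes were; 18.6% and 16.5% of all genes lay below every control). Slc2a1, at 4733, 4131 and 4547 CPM in subacute EAE, also lay below every control (limma adjusted p = 0.251). Mitochondrial ribosomal RNA took 12.2 to 34.4% of reads in acute, 18.3 to 26.5% in subacute and 17.3 to 27.3% in chronic EAE. Its share in the EAE controls was 17.4 to 18.7%. Per read outside that RNA, Slc16a1 in acute, Bsg in subacute and chronic and Slc16a4 in chronic EAE overlapped their controls. Slc16a4 and Bsg in acute EAE, and Slc16a4 and Slc2a1 in subacute EAE, still lay below every control. Mural markers summed to 3109 to 4228 CPM in acute EAE, against 4755 to 5461 CPM in controls; their part was not tested.

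Across the 4 models, which share no libraries, Slc16a1 alone of the 5 genes had CPM below its control throughout the acute stage. Every acute library of Slc16a1 lay below every library of its own control in all 4 models, which held for 51 of 15417 genes (0.331%). In EAE the change was no larger than its error (log2 -0.28 ± 0.28, SE, limma adjusted p = 0.688). Mitochondrial ribosomal RNA took 34.4% of reads in acute EAE replicate 1, against 17.4 to 18.7% in the EAE controls. Slc16a1 had 214 CPM in that library, and 268 and 264 CPM in EAE control replicates 1 and 2. Per read outside that RNA, the acute library was no longer below those controls. The lack of overlap in all 4 models therefore held only with that RNA counted in. In the mean of the 4 acute changes, 3 of 5 genes passed and all 3 were lower, where 27.2% of all genes passed. Slc16a1 was 1.93-fold lower (log2 -0.95 ± 0.12, SE, limma adjusted p = 6.29e-08), Slc16a4 1.84-fold (-0.88 ± 0.09, 3.13e-09) and Bsg 1.69-fold (-0.76 ± 0.11, 9.49e-07). Slc2a1 (log2 0.09, limma adjusted p = 0.631) and Slc2a3 (0.16, 0.461) did not pass. Without the epilepsy model the same 3 genes passed (13.4% of all genes did), at log2 -0.76 for Slc16a1, -0.48 for Slc16a4 and -0.55 for Bsg (limma adjusted p of 7.62e-05, 0.00225 and 0.00428). Without epilepsy control replicate 3 the means over the 4 models were -1.02 for Slc16a1, -0.95 for Slc16a4 and -0.75 for Bsg.

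Whether the acute change differed between models was tested directly. All 5 genes passed the F test of limma, where 32.3% of all genes did, with adjusted p of 6.3e-07 for Slc16a4, 0.00135 for Slc2a1, 0.00628 for Bsg, 0.0239 for Slc2a3 and 0.0263 for Slc16a1. All 5 also passed without epilepsy control replicate 3 (adjusted p from 3.32e-08 to 0.0277). Without the epilepsy model 0 of 5 passed (0.870% of all genes did), with adjusted p from 0.111 for Slc16a4 to 0.965 for Slc2a1. The difference for Slc2a1 was also not called after quantile normalization (limma adjusted p = 0.381). At the subacute and chronic stages none of the 5 differed between models, where 7.61% and 2.40% of all genes did.

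At the subacute stage the mean over the models was lower for Slc2a1 (log2 -0.32 ± 0.12, SE, limma adjusted p = 0.0458), Slc16a4 (-0.3 ± 0.1, 0.0194) and Bsg (-0.33 ± 0.11, 0.0246), 3 of 5 genes where 27.3% of all genes passed. These shifts were small, the call for Slc2a1 was lost without epilepsy control replicate 3 (log2 -0.25, limma adjusted p = 0.104, with -0.36 for Slc16a4 and -0.32 for Bsg), and 0 of 5 passed after quantile normalization or with mitochondrial ribosomal RNA left out. Slc16a1, which had fallen at the acute stage, stood at log2 -0.04 (limma adjusted p = 0.851). At the chronic stage none of the 5 passed, where 2.05% of all genes did.

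**Figure D3:**
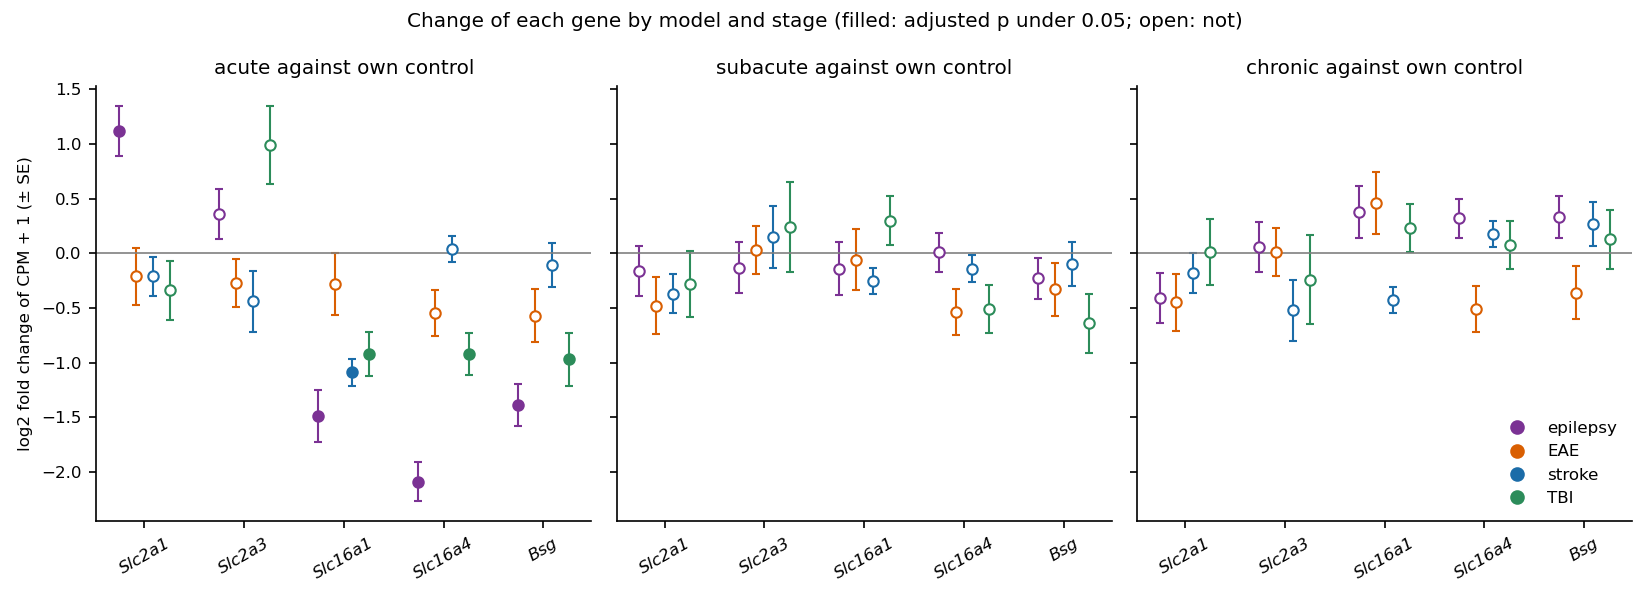
Log2 change of CPM + 1 against the model's own control (points, with bars of ± SE) for each gene, model and stage; filled points have a limma adjusted p under 0.05. Filled points occur at the acute stage alone, with Slc16a1 at -1.49 in epilepsy, -1.09 in stroke and -0.92 in TBI, and Slc2a1 at 1.12 in epilepsy.

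A ratio of 2 genes within a library does not depend on how the library was scaled. In acute epilepsy the log2 ratio of Slc16a1 to Slc2a1 was -5.98, -5.72 and -5.83, against -2.38, -2.92 and -4.38 in controls. All acute libraries were below all controls, and the ratio was 6.13-fold lower (difference -2.62, exact two-sided permutation p = 0.1, the smallest that 3 against 3 allows). Without control replicate 3 the difference was -3.19. In acute stroke the ratio was -4.88, -4.79 and -4.68, against -3.64, -4.17 and -3.88 in controls, 1.85-fold lower without overlap (exact permutation p = 0.1). In acute TBI it was -2.39, -2.47 and -1.72, against -1.36, -1.5 and -2 in controls, which overlap (difference -0.57, exact permutation p = 0.2), and in acute EAE the difference was -0.07 (p = 0.6). At the subacute stage of TBI the ratio was -1.35, -1.05 and -0.86, against -1.59 and -1.74 in controls, higher without overlap (difference 0.58, exact permutation p = 0.2). In all, 36 such comparisons of ratios were made, and no design here can reach p under 0.05.

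The lactate carrier was also read against its escort. In acute stroke the log2 ratio of Slc16a1 to Bsg averaged -3.92 ± 0.23, against -2.93 ± 0.17 in controls (SD, n = 3 each), 1.98-fold lower with no overlap (exact permutation p = 0.1). In acute epilepsy the same ratio differed from control by -0.11 and in acute TBI by 0.05, both with overlap, and in acute EAE by 0.28, with all acute libraries above control. At later stages it was lower without overlap in chronic stroke (-0.7), and higher without overlap in chronic EAE (0.83) and subacute TBI (0.94), with exact permutation p of 0.1, 0.1 and 0.2. Whether these differences differ between models was not tested. The ratio of Slc2a3 to Slc2a1 was higher without overlap in acute TBI (difference 1.58), subacute TBI (0.56) and subacute EAE (0.52), each with an exact permutation p of 0.1, on the few reads that Slc2a3 had.

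**Figure D4:**
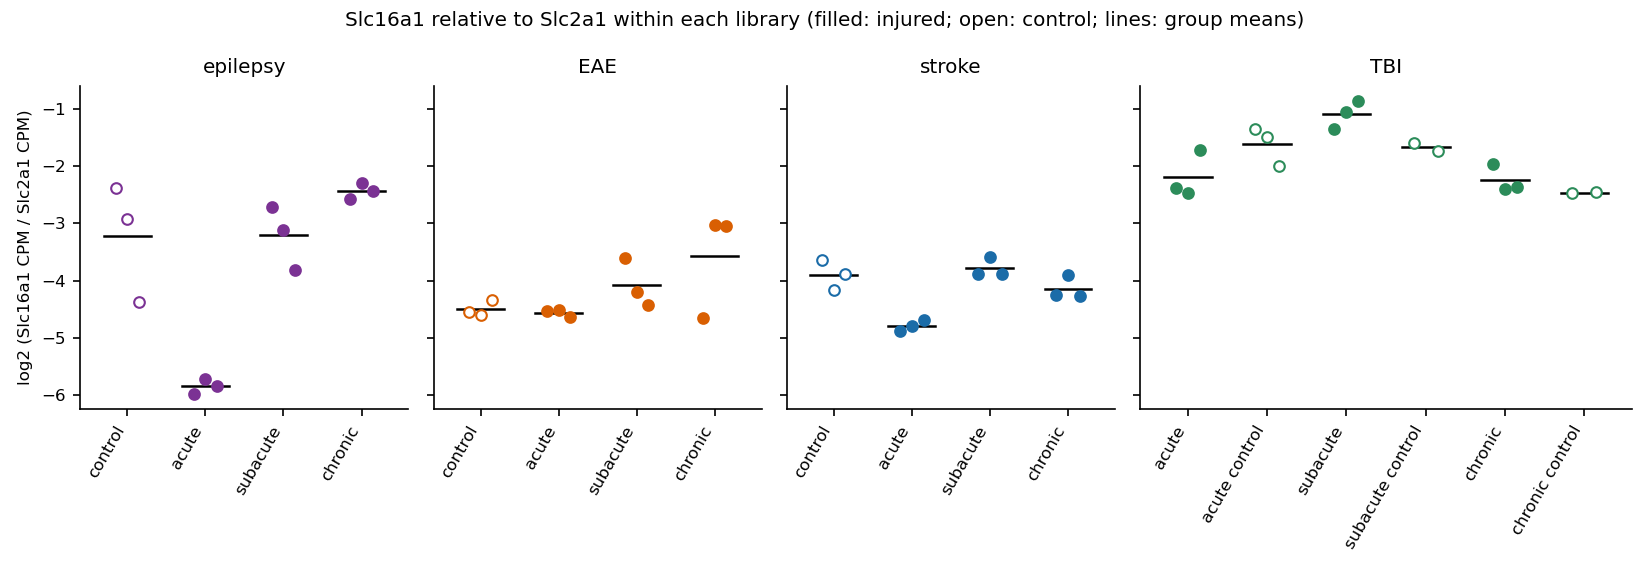
Log2 of Slc16a1 CPM over Slc2a1 CPM in each library of the 4 models, filled for injured groups and open for controls, with a line at the group mean. The acute epilepsy libraries lie at -5.98 to -5.72, below controls at -4.38 to -2.38, and the acute stroke libraries at -4.88 to -4.68, below controls at -4.17 to -3.64.

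The other genes of the pathway were read from 5 lists of 67 genes. Over all genes 2003 of 18141 were called higher and 3734 lower in brain endothelial cells than in the organ mean, 1408 of 15417 higher and 2781 lower in the mean of the acute changes, and 16.2% higher and 11.1% lower in the subacute mean; the counts of each list stand beside these. Of 10 other glucose carriers tested, 0 were higher and 5 lower in brain endothelial cells than in the organ mean, among them Slc2a9, a urate carrier, at 1.76 ± 0.83 CPM in brain endothelial cells and 16.1 ± 1.59 CPM in lung (log2 against the organ mean -2 ± 0.3, SE, limma adjusted p = 0.000195, n = 2 each). In brain vascular cells 1 of the 10 was higher and 3 lower, where 6.75% of all genes were higher and 15.4% lower. The higher one, Slc2a4, the insulin-regulated glucose carrier of muscle and fat, was picked out after its values were seen; it was log2 2.17 against the organ mean there (limma adjusted p = 1.81e-07) and -0.43 in brain endothelial cells (0.0497), and 15 of 16 mural markers were also higher in brain vascular cells, whose part was not tested. In the mean of the acute changes 0 of 8 were higher and 1 was lower. That gene was Slc2a8, an intracellular glucose carrier, at 1.88 ± 0.457 CPM in acute epilepsy and 6.79 ± 1.47 CPM in its controls (SD, n = 3 each; log2 -1.43 ± 0.22, SE, limma adjusted p = 0.000122), and without epilepsy it was not called in the mean (adjusted p = 0.387).

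Other monocarboxylate carriers split. Against the organ mean 4 of 12 were higher and 3 lower in brain endothelial cells. Slc16a9 was higher than the organ mean (log2 3.37 ± 0.31, SE, limma adjusted p = 1.75e-06), with 81.3 ± 33.4 CPM in brain endothelial cells but 125 ± 19.6 CPM in lung (SD, n = 2 each). In the mean of the acute changes 2 of 9 were higher and 2 lower (median log2 0.01, beside -0.06 over all genes).

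Slc16a3 (MCT4), the lactate exporter of glycolytic cells and the other carrier that basigin escorts, had 20 ± 3.86 CPM in acute epilepsy and 3.11 ± 1.39 CPM in its controls (SD, n = 3 each). This rise (log2 2.39 ± 0.26, SE, limma adjusted p = 5.11e-06) went against the falls of Slc16a1 and Bsg in the same libraries, and without epilepsy Slc16a3 was not called in the mean of the models (0.27, adjusted p = 0.267). Slc16a9 had 18.9 ± 7.66 CPM in acute epilepsy and 76.5 ± 3.45 CPM in its controls (-2.03 ± 0.19, 1.77e-06). Slc16a6 was higher in acute TBI, at 27.5 ± 10.4 CPM and 9.06 ± 1.77 CPM in its controls (1.45 ± 0.31, limma adjusted p = 0.0115), and this call was lost without acute control replicate 1 (0.0582) or acute replicate 2 (0.0736).

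Relatives and partners of basigin did not share its brain level: of 5 tested, 0 were higher and 4 lower in brain endothelial cells than in the organ mean. Emb (embigin), the basigin relative that escorts MCT2, had 0.421 ± 0.595 CPM in brain endothelial cells and 27.5 ± 3.03 CPM in heart (log2 against the organ mean -2.51 ± 0.39, SE, limma adjusted p = 0.000213, n = 2 each). Cd44, a hyaluronan receptor that can bind basigin, had 0.962 ± 1.28 CPM in brain endothelial cells and 233 ± 117 CPM in lung (-4.15 ± 0.47, 1.17e-05). In the mean of the acute changes 1 of 5, Cd44, was higher (0.77 ± 0.23, limma adjusted p = 0.0105) and 0 were lower. In subacute stroke Cd44 had 11.6 ± 2.6 CPM, against 1.11 ± 0.671 CPM in controls (2.62 ± 0.26, 4.12e-05), beside 8 of 8 tested fibroblast markers that were higher there; their part was not tested.

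Enzymes of glucose and lactate breakdown were 1 of 21 higher and 8 lower in brain endothelial cells than in the organ mean. In the mean of the acute changes 5 of 21 were higher and 2 lower (median log2 0.11), and in the subacute mean 11 were higher and 1 lower (median 0.24, beside 0 over all genes). Pgk1, a glycolytic kinase, was higher in the acute mean (log2 0.59 ± 0.09, SE, limma adjusted p = 1.27e-06), and its reads may be shared with near-identical pseudogene copies. Hk2, a hexokinase that starts glucose breakdown, had 42.1 ± 16.1 CPM in chronic EAE, against 5.16 ± 3.09 CPM in controls (SD, n = 3 each; log2 2.84 ± 0.52, SE, limma adjusted p = 0.0155), and was listed at 0 CPM in both healthy brain endothelial libraries. Of 12 regulators of glucose uptake, 2 were higher and 2 lower in the acute mean. Hif1a, the oxygen-regulated subunit of hypoxia-inducible factor, was higher (0.45 ± 0.09, limma adjusted p = 0.000224), as was Vegfa, a target of that factor (0.6 ± 0.16, 0.00406). By model, the acute change of Hif1a was log2 -0.01 in epilepsy, 0.94 in EAE, 0.3 in stroke and 0.59 in TBI. Of these the TBI change alone was called (limma adjusted p = 0.0468). For Vegfa the changes were 0.85, 0.76, -0.34 and 1.12 in the same order, called in epilepsy and TBI. The 2 that fell, named after their values were seen, were Epas1, the oxygen-regulated subunit of the related factor HIF-2 (-0.64 ± 0.2, limma adjusted p = 0.0154), and Egln1, an enzyme that marks these subunits for breakdown (-0.34 ± 0.1, 0.00873).

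The likeness of the 5 genes depended on which groups were compared. Over the means of the 24 sorted groups, Slc2a1 tracked all but Slc2a3 (-0.03), with Pearson r of 0.84 with Slc16a1, 0.92 with Slc16a4 and 0.89 with Bsg. Over the 18 injury and control groups alone, r was -0.69 with Slc16a1, -0.57 with Slc16a4 and -0.45 with Bsg, while Slc16a4 and Bsg stayed at 0.93 and Slc16a1 and Bsg at 0.83. Both sets are descriptions over group means that share a tissue, a preparation and in part a control, and Slc2a3 lay between -0.2 and -0.03 with the others over the 24 groups and between -0.45 and 0.01 over the 18.

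The genes most like each over the 24 sorted groups were named by r among 8040 genes of at least 10 CPM on average. They were Ccdc141, Atp10a and Slc1a1 for Slc2a1 (0.974 to 0.979), Far2, Slc39a10 and St8sia4 for Slc16a4 (0.977 to 0.987) and Slc38a3, Degs2 and Tpd52l1 for Bsg (0.976 to 0.977). For Slc16a1 the most alike of all was Bsg itself (0.965), followed by Tpd52l1 (0.96) and Gstm7 (0.956). Slc2a3 had no close match, with Ptpn9, Ramp3 and Map2k1 at 0.722 to 0.757. Over the 18 injury and control groups (7699 genes) the nearest were Eftud2, S1pr1 and Fam107a for Slc2a1 (0.922 to 0.927), D0H4S114, Gm6768 and Prex1 for Slc16a1 (0.931 to 0.941), Tmem98, Pnkd and Faim for Slc16a4 (0.959 to 0.967), Pnkd, Smpdl3a and Tprgl for Bsg (0.936 to 0.942) and Amotl1, Zbtb43 and Slc23a2 for Slc2a3 (0.745 to 0.789).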

How the data were processed

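RNA was amplified with NuGEN's Ovation RNA-seq V2 and libraries were made with its Ultralow kit, per the labels' protocols. The authors deposited 1 table of 37991 genes by 68 libraries in CPM, the reads of a gene per 1000000 reads of its library. TopHat2 2.0.13, featureCounts, Subread and the build mm9 are named per the submitters' processing notes, with no role given. Strand of counting is not given in the sources used here.

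The values were whole multiples of 1 read (100.0% of 1374704 values above 0, within 0.001), which gave each library's depth. CPM are not counts, so tests were run with limma 3.58.1 (R 4.3.3, trend) on log2(CPM + 1). Fold changes are on that scale and understate those of low genes. A gene was tested where 3 libraries (2 for TBI and the healthy groups) exceeded 1 CPM. P-values were adjusted by Benjamini-Hochberg over all genes tested in a fit, with a threshold of 0.05. Each model was fitted alone, with all of its groups, and a fit over 52 libraries gave the mean over the 4 models and the difference among them. Ratios of single genes were compared by an exact two-sided permutation test over libraries. Scripts were tested on simulated data.

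The 5 genes, the gene and marker lists and the tests were chosen with earlier results of these data known. From the pathway lists the text names genes called against the organ mean or in the mean over the models, at most 4 a list by smallest adjusted p. Not every gene so chosen is reported here. Slc2a4, Epas1 and Egln1 were added after their values were seen. No pair of libraries held identical values. Alternatives were quantile normalization, leaving out mitochondrial ribosomal RNA, a pseudocount of 0.1, no filter, no trend, a replicate block, edgeR 4.0.16 and DESeq2 1.42.0 on the recovered reads, fits to the compared groups alone, pooled TBI controls, calls required against each organ at once, and each library left out; the fit without the epilepsy model was added after seeing the data. Promoter windows are those of RefSeq (GRCm38.p6), and transcript lengths were taken from GENCODE exons. Python 3.11.15 was used with pandas 2.3.3, numpy 2.4.6 and matplotlib 3.10.9.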

Additional observations from a re-analysis of the deposited data

Results flagged for a closer look

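The acute change differed between the 4 models for all 5 genes by the F test of limma, with adjusted p of 6.3e-07 for Slc16a4, 0.00135 for Slc2a1, 0.00628 for Bsg, 0.0239 for Slc2a3 and 0.0263 for Slc16a1. Without epilepsy none of the 5 passed, with adjusted p from 0.111 to 0.965. The call for Slc16a1 was lost with edgeR on the recovered reads (adjusted p = 0.0978), and those for Slc16a1 and Slc2a3 with no filter on low genes (adjusted p of 0.0594 and 0.0528). Among the 4 whole brain libraries, Slc2a3 had 1 value far from the others: 46.7 CPM, against 84.8 to 90.5 CPM, a gap of 0.870 of the whole range. The same library had the lowest whole brain value of each of the 5 genes, and mitochondrial ribosomal RNA took 51.8% of its reads, against 36.0 to 43.0% in the other whole brain libraries; its part in the gap was not tested. How often chance gives such a gap in groups of this size was not worked out.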

How the results depend on the processing

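None of 55 called values of the 5 genes changed sign under the alternatives run. Of 105 values that were not called, 35 had the other sign under at least 1 alternative, none of them called there (lowest adjusted p 0.128), among them Slc2a1 and Bsg in acute stroke. The falls of Slc16a1, Slc16a4 and Bsg in acute epilepsy, of Slc16a1 in acute stroke and of all 3 in the mean of the acute stages were called under every alternative run, the fit without epilepsy included for the mean. Counts of the 5 genes called moved as follows; the cause was not tested. Brain vascular against brain endothelial cells called 0, but 2 after quantile normalization or without mitochondrial ribosomal RNA and 1 with a pseudocount of 0.1, edgeR or DESeq2. DESeq2 called 1 between chronic and subacute epilepsy and 1 between the subacute and acute changes in TBI, where limma called 0. Subacute EAE called 2 when fitted to the compared groups alone, against 0. Acute TBI called 3, but 1 with no filter or with the compared groups alone, and 0 to 3 with a library left out. The difference among models called 5, but 3 with no filter and 0 without epilepsy. The subacute mean called 3, but 0 after quantile normalization or without mitochondrial ribosomal RNA, 1 with no filter or without epilepsy, and 1 to 3 with a library left out. Chronic stroke called 0 to 1 with a library left out. Within counts that moved less, Slc2a3 was called in acute epilepsy (0.66 to 0.82 on the log2 scale) and between its subacute and acute stages (-1.07 to -0.90) after quantile normalization, with edgeR and with DESeq2, and between those stages also with the compared groups alone (-0.49, adjusted p = 0.0285), and its call against liver was lost in 3 of 9 settings and 3 of 4 fits without a library.

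Replicates sharing a number did not deviate together (correlations -0.66 to 0.4 over 36 pairs, 7 above 0.1), so the numbers were not taken as pairs. With a replicate block, 5860 genes were called in acute epilepsy, against 5834 without it, and the block ended the call of Slc2a3 against liver (adjusted p = 0.0628) and changed no other call of the 5 genes. On the recovered reads edgeR called 5681 genes there and DESeq2 6150. With 2 to 3 libraries a group, small changes could be missed, and Slc2a3 rested on as few as 8 reads a library.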
